A study of Homo sapiens with 6 samples.

Results

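A CpG reads the same on both DNA strands, so each CpG holds a cytosine on the plus strand and another on the minus strand 1 base further on. The CpGs described here are those of chromosomes 1 to 22 whose cytosines each had 10 reads or more in every one of 6 bisulfite libraries of PC-3 cells. They numbered 7841 of the 1275871 CpGs listed in any library. They were also part of the 330421 CpGs on those chromosomes with at least 1 strand listed in every library. A strand was listed only with 10 reads or more. The choice used coverage and no methylation value. PC-3 is an established human prostate carcinoma line. The treated group was 3 libraries of cells given 160 µM S-adenosylmethionine (SAM) for 5 days, and the control group was 3 libraries of cells given PBS for the same time. The labels do not say whether the replicates were separate cultures, so the spread between them may be technical. The p-values below rest on that spread, moderated over CpGs, with the error of counting reads as its floor. They cover no spread beyond these libraries. All positions are on hg19, give the plus-strand cytosine and count from 1. No gene annotation of that build was used here, so CpGs are named by position.

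SAM is the methyl donor that DNA methyltransferases use. After DNA replication the old strand carries methyl groups and the new strand does not, and such a CpG is called hemimethylated. DNMT1, with its partner UHRF1, which binds hemimethylated CpGs, restores the mark on the new strand. Most CpGs therefore carry the same mark on both strands, and comparing the strands shows where a bisulfite library departs from that. Bulk libraries give the share of reads with C on each strand separately. They do not read both strands of 1 molecule, so equal levels do not show that single molecules were symmetric.

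The CpGs read on both strands lay in 2492 windows of 1 kb, with a median of 1 CpG per window. They were a small share of what each library held, since 20819 to 142025 CpGs per library had both strands covered, or 4.30% to 15.2% of those listed. Their median coverage per strand was 32 to 144 reads in single libraries. A total of 304 CpGs fell in 46 deep windows, in which the mean summed coverage was over 10 times the median of 1196 reads, and these windows took 70.7% to 80.9% of the reads of all 7841 CpGs. The mean level over both strands was 49.3% ± 0.057 in SAM libraries and 49.4% ± 0.156 in control libraries (SD, n = 3 each). The CpGs with at least 1 strand listed in every library, but not both in all of them, had a lower level. It was 38.2% ± 0.0201 in SAM libraries and 38.2% ± 0.0748 in control libraries. At the edge of the coverage rule, the 1071 CpGs whose lowest strand coverage was exactly 10 reads had a mean absolute strand difference of 6.64 percentage points, and 17169 CpGs with both strands listed in 5 of the 6 libraries had 6.45 points. By mean level over all 6 libraries, 42.9% of the CpGs read on both strands were under 20% methylated, 15.2% were between 20% and 80%, and 41.9% were over 80%.

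The strand difference is given as plus minus minus, in percentage points, and its size was largest at intermediate levels. Level was the mean of the same strands, so a CpG near 0 or 100% cannot show a large difference and a full split must lie near the middle of the scale. The order of the classes is thus largely fixed by construction, and the values below are a description. At the 1220 CpGs with a mean level of 20% to 80%, its mean absolute size was 23.8, 30.6 and 19.3 points in SAM replicates 1 to 3, against 24.9, 23.4 and 24.5 points in the control libraries of those numbers. Among the 3339 CpGs under 20% it was 2.38 to 3.18 points, and among the 3282 CpGs over 80% it was 3.97 to 5.13 points. The size was highest in the class of 40% to 50%, with a mean over the libraries of 31.9 points at 194 CpGs. Counting error was smaller than this spread in every class of level. At 20% to 80% the SD of the strand difference across CpGs was 26.8 to 40.3 points, where binomial counting at the same coverages gives 6.10 to 11.3 points. Intervals of that kind cover counting only, since copies made during amplification cannot be told from separate molecules in these files.

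**Figure D1:**
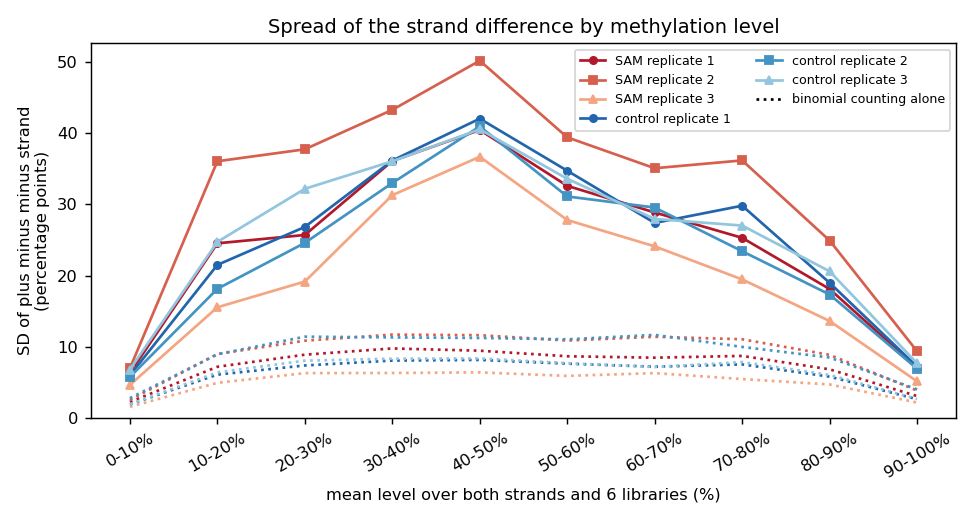
SD of the strand difference (y axis, percentage points) across CpGs in classes of mean methylation level (x axis, %), with 1 solid line per library and the SD from binomial counting alone as dotted lines of the same colour. All 6 solid lines peak at 40-50%, where the SD is 36.7 to 50.2 points, and lie above their dotted lines in every class.

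Whether SAM cells differed from control cells in how far apart the strands were was compared over libraries. The mean absolute strand difference was 6.76, 8.27 and 5.68 points in the SAM libraries, in order of replicate number, and 6.997, 6.86 and 7.13 points in the control libraries. SAM libraries gave both the highest and the lowest value, and all control libraries lay between them. The group means were 6.90 ± 1.30 points in SAM libraries and 6.997 ± 0.134 points in control libraries (SD, n = 3 each), a difference of -0.097 points. Without SAM replicate 2 it was -0.781 points, and without SAM replicate 3 it was 0.515 points. The share of CpGs with strands at least 20 points apart was 10.6%, 14.1% and 7.51% in the SAM libraries, against 11.6%, 10.5% and 11.8% in the control libraries. The group ranges overlapped again. SAM replicate 2 had the second lowest total of reads, the highest share and the lowest median coverage at these CpGs, and SAM replicate 3 had the lowest share and the highest median coverage. With each strand thinned to 10 reads, the SAM minus control difference of the mean absolute difference was -0.0757 points.

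The plus strand was slightly lower than the minus strand in every library. The mean signed difference was -0.882, -0.0335 and -0.293 points in the SAM libraries, against -0.623, -0.578 and -0.484 points in the control libraries. In deep windows the gap was wider, with means over their 304 CpGs of -9.05, -9.23 and -8.04 points in the SAM libraries and -7.61, -7.02 and -7.88 points in the control libraries. There the groups did not overlap, at -8.78 ± 0.639 points in SAM libraries and -7.50 ± 0.438 points in control libraries (SD, n = 3 each). Neighbouring windows at chr21:9826001-9827000 and chr21:9825001-9826000 held 113 and 52 of the 304 CpGs. Whether the groups stay apart without these windows was not tested. Over the 7537 CpGs outside deep windows the signed difference was -0.552, 0.337 and 0.0193 points in SAM libraries. In control libraries it was -0.341, -0.318 and -0.186 points. SAM and control libraries overlapped over all CpGs and over those outside deep windows. Of the 10 classes of level 10 points wide, the groups did not overlap in 2. At 50% to 60% the values were -9.29, -6.96 and -7.27 points in SAM libraries and -6.48, -6.84 and -6.78 points in control libraries, and at 70% to 80% they were -0.104, 3.64 and -1.47 points in SAM libraries and -4.93, -2.17 and -3.58 points in control libraries, so SAM was lower in one class and higher in the other. Over all CpGs, within the 3 libraries with more reads (SAM replicate 1, control replicates 1 and 3) SAM minus control was -0.328 points, and within the 3 with fewer reads it was 0.415 points. The sign thus differed between these sets of libraries.

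**Figure D2:**
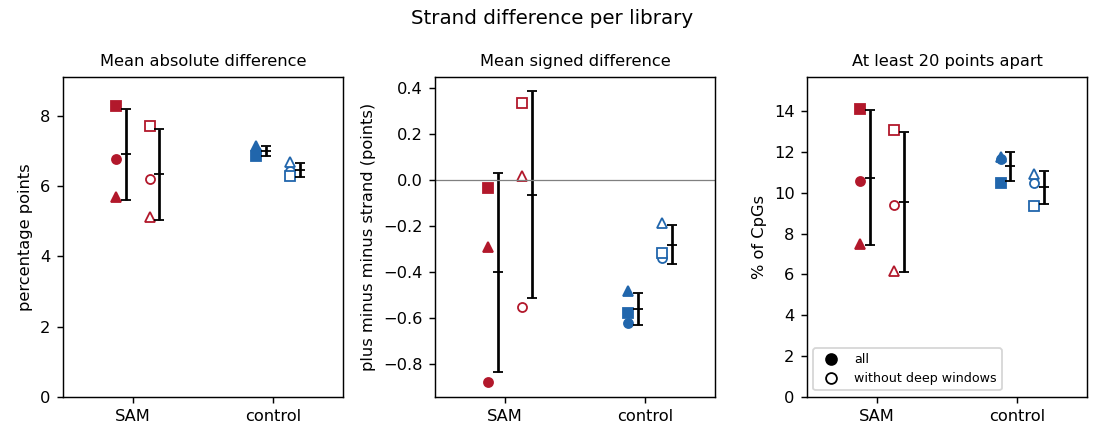
Mean absolute strand difference (left, percentage points), mean signed strand difference (middle, percentage points) and share of CpGs with strands at least 20 points apart (right, %), for SAM and control libraries. Filled symbols are all 7841 CpGs and open symbols are the 7537 outside deep windows, with circles, squares and triangles for replicates 1 to 3 and black bars for mean ± SD (n = 3). The SAM libraries span a wider range than the control libraries in each panel, and the groups overlap.

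At CpGs of intermediate level, strand differences repeated in part from library to library. Across the 1220 CpGs at 20% to 80%, Pearson's r of the strand difference between libraries was 0.314 to 0.583 over the 15 pairs, with a median of 0.470. It was 0.232 to 0.505 at the 988 of them outside deep windows. Under 20% the median r was 0.058 (lowest -0.0143) over 3339 CpGs, and over 80% it was 0.069 (lowest 0.00678) over 3282. The median absolute size of the mean strand difference was 0.265 points under 20% and 1.56 points over 80%. With differences this small, the low r says little about repetition at single CpGs. The CpGs share windows and base composition, and the values are given as a description. The control libraries can be used to choose CpGs and the SAM libraries to look at them again. Of 196 CpGs with plus higher by at least 20 points in the control mean, 134 had plus higher in the SAM mean and 88 by at least 20 points. Of 289 CpGs with minus higher by at least 20 points in the control mean, 233 had minus higher in the SAM mean and 143 by at least 20 points. At a median of 15.9 and -19.8 points in SAM libraries, against 28.5 and -29.6 points in the control libraries that chose them, the differences were kept in part. Outside deep windows the medians were 8.51 and -12.5 points in SAM libraries, against 27.2 and -28.2 points in control libraries, and 63 of 169 with plus higher and 76 of 212 with minus higher were again at least 20 points apart.

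How far a library stood apart at a CpG was compared between its strands. For each library and strand, the deviation of the level from the mean of the other 5 libraries was taken at each CpG. At 20% to 80% these deviations had an SD of 13.6 to 26.0 points on the plus strand and of 13.6 to 25.8 points on the minus strand. Between the strands of the same library, Pearson's r of the deviations was -0.0119 to 0.0545 over the 1220 CpGs, and -0.00997 to 0.0444 over all 7841. Under 20% Pearson's r was -0.0287 to 0.142, highest in control replicate 1, and Spearman's correlation reached 0.1855 in SAM replicate 2. At 20% to 80% and over all CpGs, a library's deviation on 1 strand thus had almost no linear relation to its deviation on the other. Whether duplicate reads were removed is not stated in the sources used here, and its part in this was not tested.

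Each CpG was then tested for a strand difference with a logistic model of its methylated and unmethylated reads, with 1 intercept per library, moderated overdispersion and Benjamini-Hochberg adjustment over the CpGs of all chromosomes. A CpG was called at an adjusted p under 0.05 with a mean difference of at least 20 points. Among the 6424 CpGs tested on chromosomes 1 to 22, 182 were called, 65 with plus higher and 117 with minus higher. Over all chromosomes together the call rate was 2.93%, of which 1.09% with plus higher and 1.83% with minus higher, so the autosomal share is close to it by construction. The other 1417 CpGs had no methylated or no unmethylated read in any library and could not be tested. With a minimum of 50 points in place of 20, 67 were called (1.06% over all chromosomes), 28 with plus higher (0.447%) and 39 with minus higher (0.616%). By level, the called CpGs were 165 of 1220 at 20% to 80%, 4 of 1992 tested under 20% and 13 of 3212 tested over 80%. The minimum of 20 points cannot be reached at a mean level under 10% or over 90%, so this split by level is built into the rule. In 172 of the 182, all 6 libraries had the same sign. When each library was left out in turn, 128 of the 182 stayed under the adjusted p in every round.

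The calls were crowded into few places. They lay in 68 windows of 1 kb, and 96 of the 182 were among the 304 CpGs of deep windows, a share of 31.6% of those CpGs. Outside deep windows 86 of 6120 were called, 42 with plus higher and 44 with minus higher, and 47 of these 86 stayed in every leave-one-out round. When the deep windows were left out before fitting, 61 CpGs were called, 29 with plus higher and 32 with minus higher. A pair of neighbouring windows on chromosome 21, at chr21:9825001-9826000 and chr21:9826001-9827000, held 65 calls or 35.7% of all. They had a mean of 7243 and 16880 reads per strand and library, with 17 and 38 calls with minus higher against 8 and 2 with plus higher. A deep window at chr1:156186001-156187000 held 13 calls, all with minus higher, between -30.0 and -20.8 points. The excess of minus-higher calls was thus found in deep windows, and the remaining calls were close to even between the strands. Whether reads from repeated copies were placed on these windows was not tested. Calls were also more frequent where the strands were read unevenly. With a log2 ratio of strand coverages of at least 4 in either direction, 40 of 245 tested CpGs were called, against 57 of 2987 with a ratio under 1. Whether this holds outside deep windows was not tested.

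In 13 CpGs the strands were split the same way in all 6 libraries, with at least 80% on 1 strand and at most 20% on the other. The plus strand was the methylated one at 2 of them and the minus strand at 11. They lay in 9 windows, 4 of the 13 in deep windows, and all were called. Such a split passes the minimum of 20 points by construction. The largest difference was at chr11:104034711, where the plus strand was at 100%, 100% and 100% in SAM libraries and 100%, 100% and 93.8% in control libraries. The minus strand of the same CpG was at 3.8%, 3.13% and 0% in SAM libraries and 0%, 8.33% and 0% in control libraries. No library came near the other strand's range, and the mean difference was 96.4 points (SE 1.36, n = 6; adjusted p = 2.93e-05, quasi-binomial F test). At chr19:5244204 the order was the reverse. Its plus strand was at 1.07%, 12.4% and 15.6% in SAM libraries and at 0% in all control libraries, while its minus strand was at 100%, 100% and 95.3% in SAM libraries and 100%, 95.2% and 95.8% in control libraries. The mean difference was -92.9 points (SE 3.17, n = 6; adjusted p = 7.19e-05, quasi-binomial F test).

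**Figure D3:**
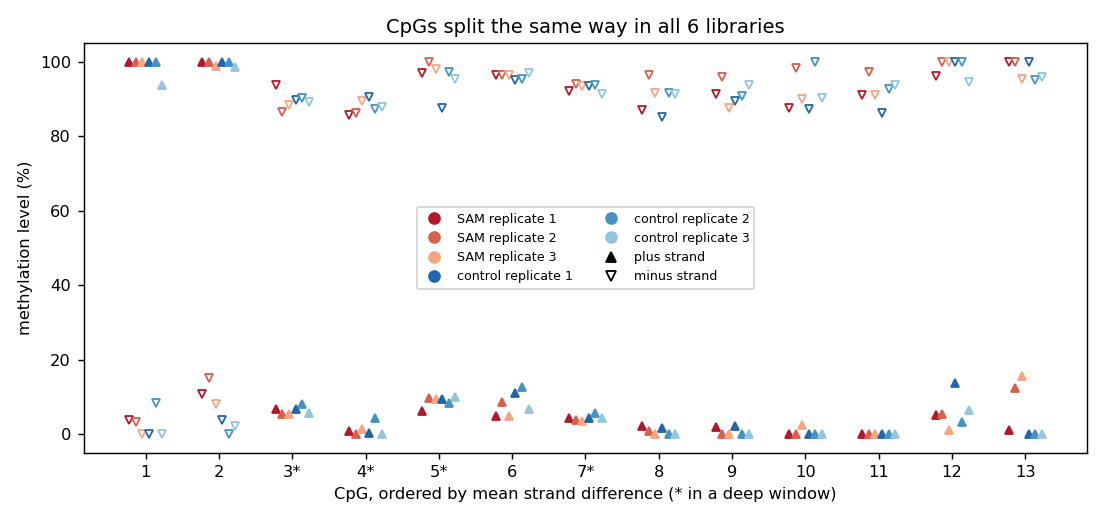
Methylation level (y axis, %) on the plus strand (filled triangles) and minus strand (open inverted triangles) of the 13 CpGs split the same way in all 6 libraries, ordered by mean strand difference, with SAM libraries in red shades left of control libraries in blue shades and an asterisk for deep windows. CpGs 1 and 2 are methylated on the plus strand and the other 11 on the minus strand, in SAM and control libraries alike. On single strands the groups do not overlap at some of them. An example is the minus strand of chr11:66885617, at 8.07% to 15% in SAM libraries and 0% to 3.70% in control libraries.

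The deepest of the split CpGs was chr21:9826765, with 2044 to 35566 reads per strand and library. Its plus strand stood at 3.43% to 4.32% in SAM libraries and 4.37% to 5.65% in control libraries. Its minus strand stood at 92.1%, 94.2% and 93.6% in SAM libraries and 93.6%, 93.9% and 91.4% in control libraries. The difference averaged -88.8 points (SE 0.549, n = 6; adjusted p = 6.91e-07, quasi-binomial F test). Another split CpG 12 bases on, chr21:9826777, averaged 6.33% on plus and 89.7% on minus. Its strands were read unevenly, with 3692 to 18670 reads per library on plus and only 15 to 188 on minus. Within the same 1 kb window, 113 CpGs were read on both strands and 40 were called.

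Some strand differences covered several neighbouring CpGs. On chromosome 5, 4 of 5 CpGs between chr5:31639326 and chr5:31639358 were split with minus high, at mean differences of -92.1 to -89.8 points. At chr5:31639329 the plus strand had 0% in every library and the minus strand had 91.3%, 97.4% and 91.1% in SAM libraries and 86.3%, 92.9% and 93.8% in control libraries. The fifth CpG, chr5:31639343, lay between them and was at 0% on both strands in all libraries. On chromosome 1, the 4 CpGs from chr1:8086306 to chr1:8086329 were 85.9% to 89.4% methylated on plus and 0% to 1.41% on minus, while the 7 CpGs from chr1:8086228 to chr1:8086263 were at 0% on both strands. A window at chr11:123301001-123302000 held 7 calls among 8 CpGs, all with plus higher by 50.7 to 66.3 points. Over all members, of 154 CpGs at least 20 points apart that had the next CpG 2 to 5 bases on, 86 were followed by a CpG at least 20 points apart in the same direction and 2 by one in the opposite direction. Outside deep windows 39 of 94 were followed by one in the same direction and 2 by one in the opposite direction. At 51 to 100 bases in all windows, 0 of 6 were followed by one in the same direction and 1 by one in the opposite direction.

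The mean of the difference also went with the place of a CpG in a run. Members no more than 60 bases apart were joined into runs and placed in order along the plus strand. At 20% to 80%, the first CpG of a run had a mean strand difference of 5.59, 10.8 and 8.97 points in the SAM libraries and 2.93, 8.54 and 6.45 points in the control libraries. The last CpG had -8.84, -8.39 and -8.77 points in SAM libraries and -13.0, -10.0 and -5.97 points in control libraries. The first CpGs were positive and the last negative in 6 of 6 libraries, over 174 and 173 CpGs. The 642 CpGs in the middle of runs were negative in 6 of 6 libraries too, at -6.16, -2.84 and -4.51 points in SAM libraries and -5.36, -3.91 and -6.19 points in control libraries, the last of these past the value of its last CpGs. Outside deep windows the middle CpGs averaged -0.667 ± 2.37 points in SAM libraries and -2.11 ± 1.21 points in control libraries (SD, n = 3 each), and SAM replicate 2 was positive at 1.90 points. The 231 CpGs with no neighbour within 60 bases averaged -0.218 ± 2.81 points in SAM libraries and -0.0583 ± 1.27 points in control libraries (SD, n = 3 each). Outside deep windows the first CpGs averaged 7.15 ± 3.06 points in SAM libraries and 3.75 ± 2.82 points in control libraries, and the last averaged -8.23 ± 0.332 points in SAM libraries and -9.27 ± 4.19 points in control libraries. The called CpGs with the largest differences, 1 per window and up to 10 each way, ranged from 69.1 to 96.4 points with plus higher and from -92.9 to -75.9 points with minus higher. Of the 10 with plus higher 7 were first in a run, 2 in the middle and 1 alone, and of the 10 with minus higher 6 were last, 3 in the middle and 1 alone. Among all calls at 20% to 80%, most were not at the ends of runs. Those with plus higher were 18 first, 31 in the middle, 4 last and 8 alone. Those with minus higher were 3 first, 74 in the middle, 19 last and 8 alone. Members of that level were 174 first, 642 in the middle, 173 last and 231 alone. Of 1205 runs of at least 2 CpGs, 13 had plus higher by 20 points at the first and minus higher by 20 points at the last, and 0 had the reverse. By the same limit, plus was higher at both ends in 9 runs and minus at both ends in 7. The distance from first to last was 57 or 58 bases in 8 of those 13 runs, and in 17 of all 1205.

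**Figure D4:**
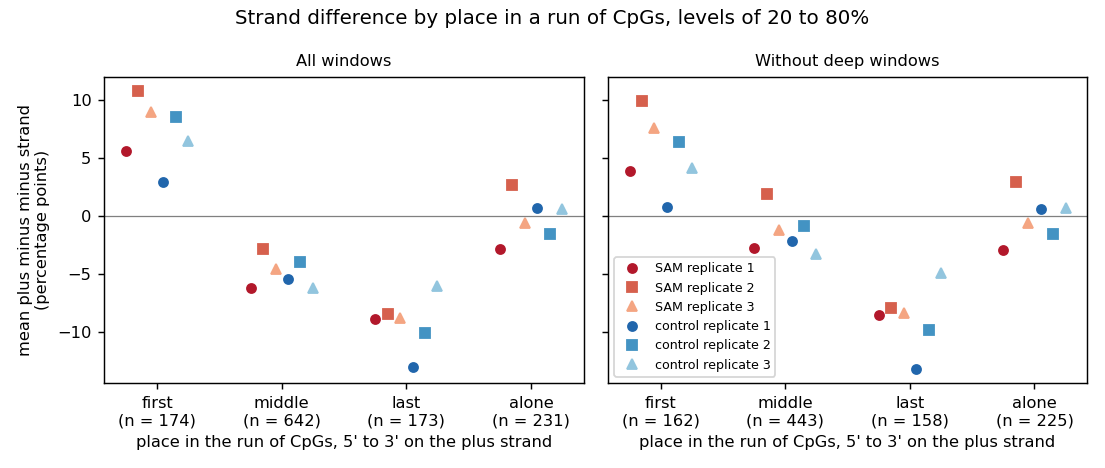
Mean strand difference (y axis, plus minus minus strand, percentage points) per library for CpGs at 20% to 80% that were first, in the middle, last or alone in a run (x axis), in all windows (left) and without deep windows (right). First CpGs lie above 0 and last CpGs below 0 in all 6 libraries in both panels, and SAM and control libraries overlap at each place.

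An example with all members in sight was the run on chromosome 11 from chr11:66885617 to chr11:66885674, whose ends are 57 bases apart. At the first CpG the plus strand was at 100%, 100% and 99.03% in SAM libraries and 100%, 100% and 98.7% in control libraries, and the minus strand was at 10.7%, 15% and 8.07% in SAM libraries and 3.70%, 0% and 2.27% in control libraries. At the last CpG the plus strand was at 4.88%, 18.8% and 24.7% in SAM libraries and 10.9%, 29.4% and 15.9% in control libraries, and the minus strand was at 100%, 85.0% and 83.8% in SAM libraries and 100% in all 3 control libraries. The 6 CpGs between them were methylated on both strands, with mean strand differences of -1.61 to 1.74 points. A run on chromosome 14 from chr14:84866032 to chr14:84866089 had the same layout, with 83.6 points at its first CpG and -85.7 points at its last. The 9 CpGs between these had mean differences of -1.71 to 7.25 points.

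The spacing was then read from all CpGs with both strands covered in single libraries, a choice made after the values above were seen. Pairs in which both CpGs were over 20% methylated were sorted by distance from 30 to 80 bases, and a pair was counted when the upstream CpG had plus higher and the downstream CpG minus higher, each by at least 20 points. At 57 or 58 bases such pairs made up 7.55%, 8.72% and 9.48% of the pairs in the SAM libraries and 6.75%, 9.69% and 8.84% in the control libraries. At 30 to 56 bases they made up 1.24%, 2.86% and 1.77% in SAM libraries and 1.46%, 2.31% and 1.75% in control libraries. At 59 to 80 bases the shares were 1.24%, 4.50% and 1.61% in SAM libraries and 2.20%, 1.45% and 1.55% in control libraries. The peak was therefore narrow, and it was present in SAM and control libraries alike, at group means of 8.58% ± 0.970 in SAM libraries and 8.43% ± 1.51 in control libraries (SD, n = 3 each). The reverse arrangement made up 0.648% to 1.54% of pairs at 57 or 58 bases in the 6 libraries, and 0.756% to 1.54% at 30 to 56 bases. In SAM replicate 2, with 195 pairs at 57 or 58 bases, single distances outside the peak also reached 9.23%, so the peak did not stand clear of the other distances there. In the other 5 libraries the highest share at any other single distance from 30 to 80 bases was 5.30%. The number of pairs per distance fell beyond the peak, for example to 404 on average at 59 to 80 bases in SAM replicate 1, against 804 at 30 to 56 bases. The sources used here state neither the read length nor how DNA was cut and fragment ends were repaired, and the part of these in the spacing was not tested.

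**Figure D5:**
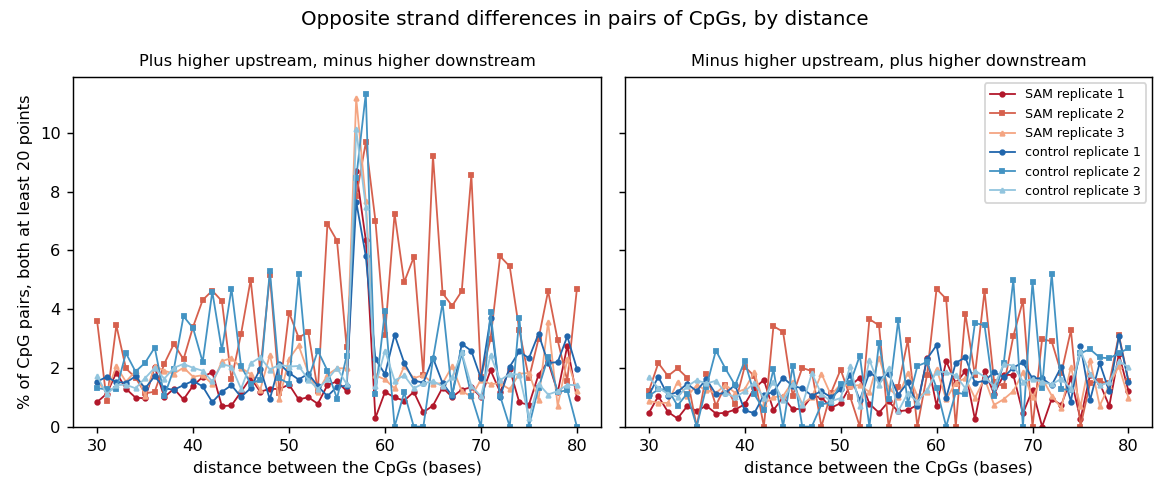
Share of CpG pairs (y axis, %) in which the strands differ by at least 20 points in opposite directions, by the distance between the CpGs (x axis, bases), with 1 line per library. The left panel has plus higher upstream and minus higher downstream and shows the rise at 57 and 58 bases, where single distances reach 5.81% to 11.3% of pairs, and the right panel has the reverse arrangement and shows no such rise. SAM replicate 2 also has high single distances elsewhere.

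The spacing was also looked for around called CpGs, first outside deep windows. Of the 42 called with plus higher, 14 (33.3%) had a listed CpG 57 or 58 bases downstream and 5 (11.9%) had one upstream. Of the 44 called with minus higher, 6 (13.6%) had one downstream and 15 (34.1%) had one upstream. Among the 913 CpGs at 20% to 80% that were tested and not called, the shares were 17.5% downstream and 15.2% upstream. The share was above that of the CpGs not called downstream of plus-higher calls and upstream of minus-higher calls, and below it on the opposite sides. Over all calls, deep windows included, 32.3% of 65 with plus higher had one downstream and 13.8% upstream, and of 117 with minus higher 32.5% had one downstream and 37.6% upstream, so the sides were close for the minus-higher calls. The distance was taken from runs whose ends include some of these calls, and those calls have a CpG at that distance by construction. No test was made of these shares. Most calls outside deep windows had no listed CpG at that distance on that side.

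Whether the strand difference of a CpG was another in SAM than in control cells was tested with a strand-by-treatment term. None of the 5289 CpGs for which the term could be fitted was called (0.0% over all chromosomes), and 343 had an unadjusted p under 0.05. By limma on the percentage-point differences 0 were called as well, with 185 at an unadjusted p under 0.05. The smallest adjusted p of the quasi-binomial test was 0.511. A p that misses the threshold does not show that the groups were alike. The 5 CpGs with the smallest p had the following values. At chr10:79396841 the plus strand was at 95.9%, 89.3% and 98.1% in SAM libraries against 69.2%, 77.4% and 53.6% in control libraries. Its minus strand was at 76.5%, 54.5% and 67.6% in SAM libraries against 77.7%, 80.3% and 75.9% in control libraries. The strand difference averaged 28.2 ± 7.89 points in SAM libraries and -11.2 ± 9.97 points in control libraries (SD, n = 3 each). At chr8:143531196 it averaged -24.5 ± 25.6 points in SAM libraries and 26.6 ± 12.4 points in control libraries, and SAM replicate 2, at 0% on both strands, was dropped from its fit. The other 3, chr1:2559957, chr8:139509401 and chr15:21083463, differed by -42.6, 13.6 and -14.1 points between SAM and control means. All 5 had an adjusted p of 0.511 in the quasi-binomial F test.

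Because both strands are read from separate DNA strands, a SAM effect can be looked for on each. The SAM and control libraries did not overlap on the plus strand at 334 of 7841 CpGs (4.26% over all chromosomes) and on the minus strand at 384 (4.89%). The shares over all chromosomes come from 7908 CpGs that include these, so the autosomal shares are close to them by construction. With 3 libraries against 3, the smallest p of an exact permutation test is 0.1. Lack of overlap alone therefore does not mark a CpG as changed by SAM. They did not overlap on both strands in the same direction at 19 CpGs (0.24%), of which 5 were higher (0.0632%) and 14 lower (0.177%) in SAM libraries, and on both strands in opposite directions at 18 (0.228%). The counts of the same and of opposite directions were close. At 8 of the 19 (0.101% of CpGs over all chromosomes) the group means differed by at least 10 points on both strands, and the following were chosen after their values were seen. At chr1:2987015 the plus strand was at 38.9%, 66.7% and 67.0% in SAM libraries against 0%, 26.7% and 19.1% in control libraries, and the minus strand at 63.6%, 69.0% and 65.2% in SAM libraries against 40.3%, 51.9% and 20% in control libraries. SAM minus control was 42.3 points on plus and 28.5 points on minus. At chr17:42061603 the plus strand was at 60.6%, 19.6% and 71.1% in SAM libraries against 74.6%, 95.2% and 92.5% in control libraries. Its minus strand was at 36.0%, 23.5% and 44.5% in SAM libraries against 45.5%, 56.3% and 74.7% in control libraries, and SAM minus control was -37.0 points on plus and -24.2 points on minus. Coverage at these CpGs went from 15 to 339 and from 56 to 687 reads per strand and library. Neither was called for a strand-by-treatment difference.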

How the data were processed

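Genomic DNA of PC-3 cells was sequenced after bisulfite conversion in 3 SAM and 3 control libraries. Per the file headers, the deposited lists give for each cytosine the strand, its coverage (a read count) and the percentages of those reads with C and with T. CASAVA 1.8.2, FastQC 0.10.0, Bismark 0.7.4, methylKit 0.5.3 and hg19 are named per the submitters' processing notes. The sources used here do not state the library type, read filters or removal of duplicates. The lowest listed coverage was 10 reads. Total coverage per library was 33056018 to 183523792 reads over listed positions.

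Whole numbers of methylated reads were computed as coverage times percent C as deposited by the authors, and gave back the percent within 0.01 points at all 5400197 positions. Plus-strand and minus-strand cytosines 1 base apart were joined. Each CpG was tested with a quasi-binomial F test (R 4.3.3; overdispersion moderated with limma 3.58.1, trended on level and floored at 1) over CpGs of all chromosomes. Values over all CpGs of a library received no p. A CpG with 0 methylated or 0 unmethylated reads overall was left out, and a library with 0 or only methylated reads at a CpG was dropped from that CpG's fit. The fits were tested on simulated data. Named CpGs are, among calls with the same sign in all libraries, the largest per 1 kb window, up to 10 each way, then the 5 smallest p for the strand-by-treatment term, and those split in all 6 libraries. CpGs named in runs and for SAM effects on both strands were chosen after their values were seen. The CpGs and tests were chosen with earlier results of these data known. Other settings were coverage minimums, thresholds, weighting, tests without overdispersion and limma, leaving out libraries, a replicate block, groups of libraries by reads and, added after the data were seen, thinning, leaving out deep windows, a prior trended on coverage and other run gaps.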

Additional observations from a re-analysis of the deposited data

Results flagged for a closer look

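Among the 5 CpGs with the smallest p for the strand-by-treatment term, 4 drew attention by their signs. Every SAM library had a strand difference of one sign there and every control library the opposite sign. The share of all CpGs with such signs was not counted. SAM minus control was -42.55 points at chr1:2559957, 13.61 points at chr8:139509401, 39.46 points at chr10:79396841 and -14.14 points at chr15:21083463. At chr1:2559957 the plus strand was at 0%, 12.6% and 7.80% in SAM libraries against 55.95%, 43.9% and 68.6% in control libraries, and the minus strand at 13.0%, 20% and 35.1% in SAM libraries against 31.0%, 20.3% and 37.1% in control libraries. The tests of the differences gave an adjusted p of 0.511 at each (quasi-binomial F test). The CpGs were selected for small p, so the opposite signs are a description.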

How the results depend on the processing

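In the main setting 182 of 6424 tested CpGs were called for a strand difference (190 of 6490 over all chromosomes). Without a minimum difference 304 were called (316 over all chromosomes), and with a minimum of 50 points 67 (69). Without overdispersion 367 were called (377 over all chromosomes). With 20 reads on each strand 103 of 1987 tested were called (107 of 2014 over all chromosomes). Without deep windows 61 of 6120 were called (67 of 6179 over all chromosomes). Leaving out a library in turn gave 139 to 164. For the strand-by-treatment term, a model without overdispersion called 385 of 5289 CpGs (388 of 5354 over all chromosomes). One with overdispersion not floored at 1 called 2 (3 over all chromosomes). All other settings run called 0, among them the replicate block and a term for the libraries with more reads. Weighting CpGs by coverage, which gives most weight to deep windows, moved SAM minus control to 2.59 points for the mean absolute difference, -2.74 points for the signed difference and 7.07 points for the share at least 20 points apart. Leaving out a library in turn gave -0.781 to 0.515 points, -0.0258 to 0.398 points and -2.26 to 1.05 points for these, -0.0319 to 0.536 points for the share of split CpGs and -0.684 to 0.787 points for the share of pairs 57 or 58 bases apart. No cause was tested except where the construction itself shows one. The deviations of same-numbered libraries correlated at 0.0512, 0.0441 and -0.0246, and those of libraries with different numbers at -0.0783 to 0.0308. Values this small cannot tell whether a number marks a shared culture. With the replicate block SAM minus control was -0.097 points for the mean absolute difference. A block cannot move a difference of means in this balanced design, so that value is no check of pairing. Of the named CpGs, chr17:46655476 lost its call without SAM replicate 1, 2 or 3 or control replicate 2 or 3 (adjusted p 0.0621 to 0.118, quasi-binomial F test) and chr20:26189331 lost it without control replicate 3 (adjusted p 0.0652), while 134 other results of leaving out a library or using limma kept theirs. Coverage of 10 reads a strand limits what single CpGs in the shallow libraries can show.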
